A study of Mus musculus with 54 samples.

Results

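Glycolysis enzymes were followed through the light/dark cycle in the suprachiasmatic nucleus (SCN), a paired group of neurons above the optic chiasm that keeps daily time for the body. Their 10 genes were taken from the count table by the Ensembl identifiers that carry the symbols *Hk1*, *Gpi1*, *Pfkm*, *Aldoa*, *Aldoc*, *Tpi1*, *Pgk1*, *Pkm*, *Ldha* and *Ldhb*, and all 10 were found among its 30031 genes and passed the filter that left 18941 genes for testing. The mice were adult males of the C3H/HeH strain, 10 to 12 weeks old, untreated and kept in equal light and dark phases, and the brains were collected at zeitgeber time (ZT) 2, 6, 10, 14, 18 or 22 hr. ZT2, ZT6 and ZT10 lie in the light phase, and ZT14, ZT18 and ZT22 in the dark phase. The SCN was cut out of Nissl-stained frozen sections by laser-capture microdissection, and the tissue of 5 mice was pooled into 1 replicate. Each timepoint had 3 such replicates, called A, B and C, which gave 18 libraries, each read on 3 lanes. The RNA of each replicate was amplified before library preparation. All groups were wild type by the headers of the count table (WT), no agent was named, and the labels tell the groups apart only by the hour of collection.

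Glycolysis splits glucose into pyruvate in the cytoplasm and yields ATP and NADH without oxygen. Hexokinase traps glucose in the cell, phosphofructokinase commits it to the pathway, aldolase cuts the sugar into a pair of trioses, and pyruvate kinase makes the final ATP. Lactate dehydrogenase then converts pyruvate to lactate or back. In brain, neurons and astrocytes share this work unevenly, and several steps have isozymes that differ between the cell types, such as aldolase C, which is abundant in astrocytes.

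Between 15412981 and 35820945 reads were counted on genes in each library. The study's published plot of principal components, which is keyed by timepoint and by batch of sequencing, shows the libraries in 3 clusters. ZT22 and ZT2 form one, ZT6 and ZT10 another, and ZT14 and ZT18 the last. The labels do not say which library was in which sequencing batch, so a difference between clusters cannot be told apart from a difference between batches, and the enzymes are compared also inside the clusters. The SCN markers *Vip*, *Grp*, *Six6*, *Avp* and *Nms* were all detected, with timepoint means of *Vip*, a neuropeptide of the ventral SCN, between 963 and 2756 CPM, the read count as a share of the library total after TMM scaling. ZT6 replicate C and ZT18 replicate C stood apart for the enzymes. All 10 genes were below their timepoint mean in both of these libraries, 9 of 10 were the lowest of the 3 replicates in the first and 10 of 10 in the second, and the summed level of the 10 genes was 3358 CPM in ZT6 replicate C against 7616 and 5886 CPM in replicates A and B. The same 10 genes were also all below their mean in ZT14 replicate B, and none was below it in ZT6 replicate A. The low levels were not limited to the enzymes. Over 4917 genes with a mean of at least 40 CPM, the median log2 deviation from the timepoint mean was also lowest in ZT6 C and ZT18 C. It was -0.11 and -0.10 there, beside mean deviations of -0.50 and -0.39 over the 10 enzymes. ZT18 C also had the fewest reads (15412981).

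Most of the enzymes were highest around the end of the night and the start of the day and lowest at ZT6. By edgeR's quasi-likelihood test that the 6 timepoint means are equal, 9 of 10 genes changed with time at a Benjamini–Hochberg adjusted p under 0.05, whereas 44.0% of all genes tested did. The exception was *Aldoa*. In pooled tissue of this kind, fewer cells of a type and less RNA per cell cannot be told apart. Among the 9, *Gpi1*, *Pfkm*, *Aldoc*, *Tpi1*, *Pgk1*, *Pkm*, *Ldha* and *Ldhb* had their highest mean at ZT22 or ZT2 and their lowest at ZT6, and 10.9% of all genes tested changed with time with the highest mean at ZT22 or ZT2 and the lowest at ZT6 or ZT10. *Hk1* went another way, with its highest mean at ZT14 and its lowest at ZT2, and 8.10% of all genes changed with time with the highest mean at ZT14 or ZT18 and the lowest at ZT22 or ZT2. A gene was called cycling when it also passed JTK_CYCLE, a rank test for a sinusoidal profile of 24 hr. That call was made for 8 of 10 enzymes, against 29.9% of all genes, with a best-fitting peak at ZT14 for *Hk1* and at ZT22 for the other 7. *Pgk1* passed the time test and not JTK_CYCLE (p = 0.0907, exact null distribution, Bonferroni over 6 lags), and *Aldoa* passed JTK_CYCLE (p = 0.00942, likewise) and not the time test. The JTK_CYCLE p was not adjusted over genes. With a Benjamini–Hochberg adjustment of it over genes, 6 of 10 enzymes were called cycling. The 29.9% of all genes above belongs to the rule without this adjustment and is not the background of that count. The cycling calls of *Tpi1* and *Ldha* were kept in 15 and 14 of the 18 fits that leave out 1 library. That of *Tpi1* was lost, and *Pgk1* was called cycling, with DESeq2, DESeq2's size factors, upper-quartile scaling, no filter on low counts and recovered reads, that of *Tpi1* also with the GC and length correction and that of *Pgk1* also without ZT6 C and ZT18 C together. The call of *Ldha* was lost with the GC and length correction.

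**Figure D1:**
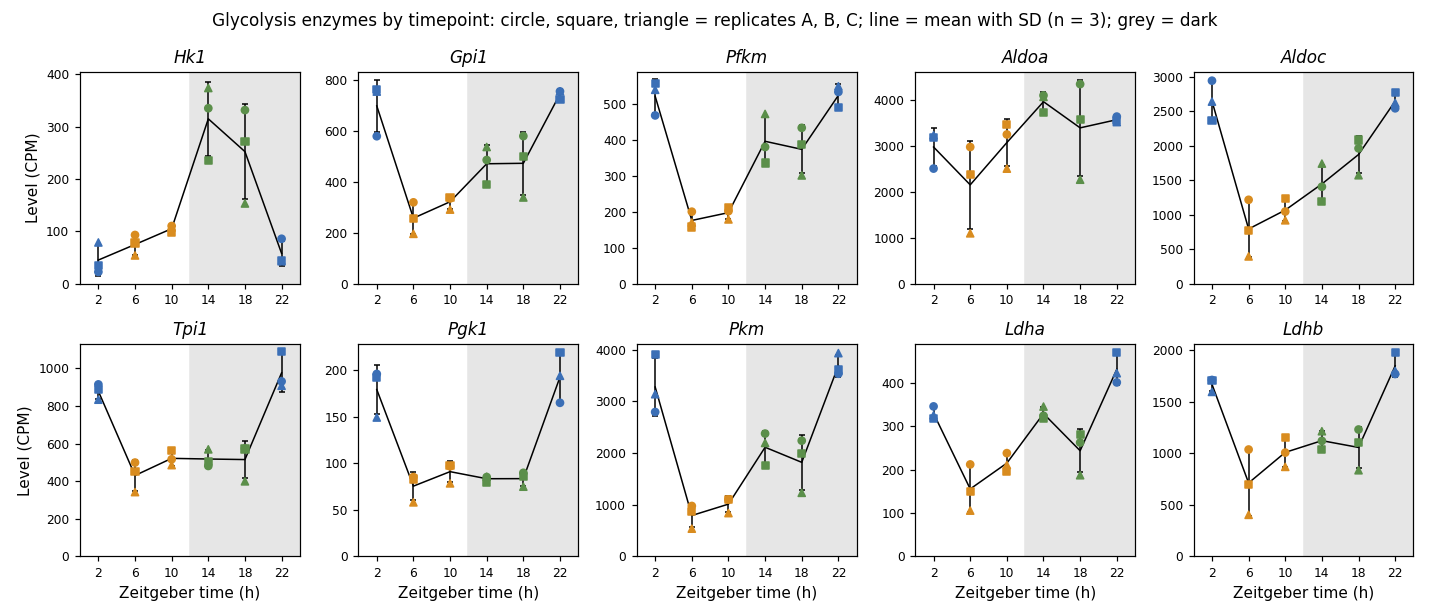
Level of each of the 10 genes in CPM (vertical axes, starting at 0) against zeitgeber time in hr. Points are the 3 replicates (circle A, square B, triangle C), coloured by cluster (blue ZT22 and ZT2, orange ZT6 and ZT10, green ZT14 and ZT18), lines join the timepoint means with their SD, and grey marks the dark phase. The blue points lie above the orange points in every panel but those of *Hk1* and *Aldoa*.

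*Hk1* (ENSMUSG00000037012, chr10:62268855-62379908, minus strand, GRCm38) encodes hexokinase 1, the hexokinase of brain, which sits on the mitochondrial outer membrane. Its levels were 335, 236 and 374 CPM in the 3 replicates at ZT14 and 332, 272 and 153 CPM at ZT18. They were 22.8, 34.4 and 79.0 CPM at ZT2 and 86.0, 45.1 and 43.1 CPM at ZT22. Every library of ZT14 and ZT18 lay above every library of the other timepoints, of which ZT10 was the next highest at 105 ± 6.8 CPM (SD, n = 3) and ZT6 followed at 75.1 ± 19.7 CPM. The mean at ZT14 was 6.94 times that at ZT2, the widest range among the 10 enzymes, and 11.02 times without ZT2 replicate C. Without ZT22 replicate A the lowest mean was that of ZT22 (44.1 CPM). The time test gave an adjusted p of 3.06e-05 (edgeR). In the order ZT14, ZT18, ZT10, ZT6, ZT22, ZT2, neighbours separated without overlap only between ZT18 and ZT10 and between ZT10 and ZT6.

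*Gpi1* (ENSMUSG00000036427, chr7:34201330-34230336, minus strand) encodes glucose-6-phosphate isomerase, which turns glucose 6-phosphate into fructose 6-phosphate. It ranged from 746 ± 17.8 CPM at ZT22 and 699 ± 103 CPM at ZT2 down to 258 ± 61.9 CPM at ZT6 (SD, n = 3), a 2.89-fold range of means (adjusted p = 5.02e-05, edgeR). The libraries of ZT6 and ZT10 lay between 196 and 340 CPM and those of ZT22 and ZT2 between 580 and 762 CPM, so these clusters did not overlap.

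*Pfkm* (ENSMUSG00000033065, chr15:98092589-98132451, plus strand) encodes the muscle-type subunit of phosphofructokinase, the enzyme of the committed step. Its levels were 533, 489 and 549 CPM at ZT22 and 468, 557 and 539 CPM at ZT2. They were 200, 158 and 170.2 CPM at ZT6 and 202, 212 and 179 CPM at ZT10, and the libraries of ZT14 and ZT18 fell between, from 301 to 472 CPM. Only ZT18 and ZT10 separated as neighbours in the order of means. The differences between cluster means held 99.2% of the variance of its 6 timepoint means on the log2 scale, the highest share of the 10 enzymes. The time test gave an adjusted p of 1.59e-06 (edgeR).

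Aldolase was measured as 2 isozymes. *Aldoa* (ENSMUSG00000030695, chr7:126795234-126800751, minus strand), the form found in most tissues, was the most abundant of the 10 enzymes, at 1096 CPM per kb of exon averaged over all libraries. Its levels were 4101, 3725 and 4069 CPM at ZT14 and 4348, 3572 and 2267 CPM at ZT18. They were 3641, 3559 and 3521 CPM at ZT22, 2509, 3193 and 3234 CPM at ZT2, and 3252, 3465 and 2508 CPM at ZT10. At ZT6 the replicates were spread from 1099 to 2979 CPM, wider than at any other timepoint relative to their mean. The time test did not pass (adjusted p = 0.154, edgeR), with a 1.84-fold range of means. Without ZT6 replicate C and ZT18 replicate C together, *Aldoa* passed (adjusted p = 0.0278, edgeR), and without ZT6 replicate A it did as well (adjusted p = 0.0487).

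*Aldoc* (ENSMUSG00000017390, chr11:78322968-78327781, plus strand), the astrocyte-rich form, moved more. It had 2944, 2362 and 2641 CPM at ZT2 and 2544, 2778 and 2622 CPM at ZT22, and 1217, 769.8 and 397 CPM at ZT6. The means increased in the order ZT6, ZT10 (1068 ± 159 CPM), ZT14 (1447 ± 277 CPM), ZT18 (1874 ± 267 CPM) and ZT22, but of these neighbours only ZT18 and ZT22 separated without overlap (SD, n = 3). The range of means was 3.33-fold, and the adjusted p was 2.09e-04 (edgeR).

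*Tpi1* (ENSMUSG00000023456, chr6:124810586-124814296, minus strand) encodes triosephosphate isomerase, which brings both trioses onto a single path, and *Pgk1* (ENSMUSG00000062070, chrX:106187100-106203699, plus strand) encodes phosphoglycerate kinase 1, the first ATP-making step. Both were high at ZT22 and ZT2 only. *Tpi1* had 833 to 1090 CPM in the 6 libraries of that cluster, against 342 to 562 CPM at ZT6 and ZT10 and 399 to 574 CPM at ZT14 and ZT18. *Pgk1* had 149 to 219 CPM there, against 58.0 to 97.95 CPM and 74.9 to 89.8 CPM. Without ZT6 replicate C the mean of *Pgk1* at ZT6 was 84.2 CPM, and its lowest mean was then that of ZT14 (83.4 CPM). In both genes the one gap between neighbouring means was that between ZT2 and ZT10, and the other 4 timepoints overlapped. The ranges of means were 2.27-fold for *Tpi1* (adjusted p = 4.46e-05) and 2.55-fold for *Pgk1* (adjusted p = 4.91e-06, both edgeR).

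*Pkm* (ENSMUSG00000032294, chr9:59656368-59679375, plus strand) encodes the pyruvate kinase of brain and muscle, whose isoforms M1 and M2 come from alternative exons that gene counts do not tell apart. It showed the steepest course after *Hk1*. It had 3532, 3606 and 3930.5 CPM at ZT22 and 2792, 3900.4 and 3136 CPM at ZT2, and 974, 859 and 535 CPM at ZT6. The ZT14 libraries had 2374, 1761 and 2193 CPM and those of ZT18 had 2237, 1989 and 1228 CPM. In the order of the means, ZT2 separated from ZT14 and ZT18 from ZT10, and the 3 clusters did not overlap. The range of means was 4.67-fold (adjusted p = 3.33e-06, edgeR).

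*Ldha* (ENSMUSG00000063229, chr7:46841475-46855627, plus strand) and *Ldhb* (ENSMUSG00000030246, chr6:142490249-142507957, minus strand) encode the M and H subunits of lactate dehydrogenase, the first typical of tissues that make lactate and the second of tissues that oxidise it. *Ldha* had 401, 470.0 and 422 CPM at ZT22, above all other libraries, and 345, 317 and 325 CPM at ZT2. At ZT14 it stood at 324, 318 and 345 CPM, within the range of ZT2, and it fell to 212, 149 and 105 CPM at ZT6. Its replicates at ZT14 did not overlap those at ZT18 (262, 281 and 187 CPM), though the difference did not pass the threshold (adjusted p = 0.363, edgeR). *Ldhb* had 1771, 1980 and 1800.0 CPM at ZT22 and 1713, 1705 and 1597 CPM at ZT2, also without overlap between these timepoints. It had 1037, 697 and 403 CPM at ZT6, and the libraries of ZT10, ZT14 and ZT18 lay between 836 and 1232 CPM. The ranges of means were 2.78-fold for *Ldha* (adjusted p = 1.96e-04) and 2.60-fold for *Ldhb* (adjusted p = 0.00125, both edgeR).

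Inside the clusters no enzyme passed the threshold. The count was 0 of 10 for ZT22 against ZT2 (0.0317% of all genes passed), for ZT6 against ZT10 (0.0475%) or for ZT14 against ZT18 (0.570%), by edgeR or by DESeq2. At an unadjusted p under 0.05 by edgeR, 0, 1 and 1 of the 10 passed, against 3.59%, 10.8% and 13.5% of all genes, and DESeq2 gave the same 3 counts of enzymes. The one gene in both cases was *Ldha*, which was higher at ZT14 than at ZT18 by 0.43 ± 0.20 on the log2 scale (SE, unadjusted p = 0.0484, adjusted p = 0.363, edgeR) and lower at ZT6 than at ZT10, by 0.47 ± 0.21 (unadjusted p = 0.0353, adjusted p = 0.429). The median log2 difference of the 10 enzymes was 0.15 for ZT22 minus ZT2, where 9 of 10 were higher at ZT22, and 0.09 for ZT14 minus ZT18, where 7 of 10 were higher at ZT14, beside medians over all genes of 0.01 in both. For ZT6 minus ZT10 all 10 were lower at ZT6, with a median of -0.39 beside -0.03 over all genes. That median was -0.15 without ZT6 replicate C, and the median for ZT14 minus ZT18 turned to -0.05 without ZT18 replicate C. Between 55.1% (*Aldoa*) and 99.2% (*Pfkm*) of the variance of an enzyme's 6 timepoint means on the log2 scale lay between the cluster means, with a median of 95.5%, against a median of 90.3% over the 8343 genes that changed with time. Most of the variance of each enzyme's timepoint means thus lay between clusters, with the smallest shares for *Aldoa* (55.1%) and *Ldha* (78.8%). The part of sequencing batch in it cannot be told apart. The tests inside clusters passed few of all genes, so 0 of 10 does not show that the enzymes were steady there.

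Light and dark phase were compared next, since the cycle of light is the condition of the study. The mean of ZT2, ZT6 and ZT10 was below that of ZT14, ZT18 and ZT22 for 6 of 10 enzymes at an adjusted p under 0.05, against 14.3% of all genes lower in light and 23.8% that differed in either direction. *Hk1* had the largest difference, -1.23 ± 0.22 on the log2 scale (SE, adjusted p = 7.84e-04, edgeR), with a mean of 75.2 CPM in the light and 209 CPM in the dark. *Pkm* differed by -0.81 ± 0.14 (adjusted p = 3.73e-04) and *Pfkm* by -0.70 ± 0.10 (adjusted p = 7.28e-05, edgeR). *Aldoc* (-0.56 ± 0.16), *Ldha* (-0.55 ± 0.12) and *Gpi1* (-0.51 ± 0.12) also passed, with adjusted p between 0.00268 and 0.0163 (edgeR). *Aldoa* (-0.43 ± 0.16, edgeR adjusted p = 0.0606) and *Ldhb* (-0.29 ± 0.14, edgeR adjusted p = 0.141) did not pass, nor did *Tpi1* (-0.13 ± 0.10) and *Pgk1* (-0.04 ± 0.10). *Aldoa* did pass without ZT18 replicate C (adjusted p = 0.0197), without ZT6 replicate A (adjusted p = 0.0180), without ZT6 C and ZT18 C together (adjusted p = 0.00348), with at least 10 counts required in every library (adjusted p = 0.0386), with library totals alone (adjusted p = 0.0177) and with the replicate block (adjusted p = 0.0429, all edgeR). *Ldhb* passed without ZT6 replicate A (adjusted p = 0.0154), with library totals alone (adjusted p = 0.0442) and with the GC and length correction (adjusted p = 0.0265, all edgeR). The median over all genes was -0.13 with TMM scaling and -0.03 with upper-quartile scaling, and the sign of *Pgk1* turned under DESeq2's size factors and upper-quartile scaling. *Gpi1* missed the threshold once levels were corrected for GC content and length (-0.25, adjusted p = 0.0626, edgeR). The only cluster that holds both phases is ZT22 with ZT2. There the log2 differences of dark minus light were 0.35 ± 0.39 for *Hk1*, 0.17 ± 0.23 for *Pkm* and 0.01 ± 0.17 for *Pfkm* (SE). They were 0.39 ± 0.20 for *Ldha*, 0.09 ± 0.21 for *Gpi1* and -0.00053 ± 0.27 for *Aldoc*, and none of these passed the threshold.

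**Figure D2:**
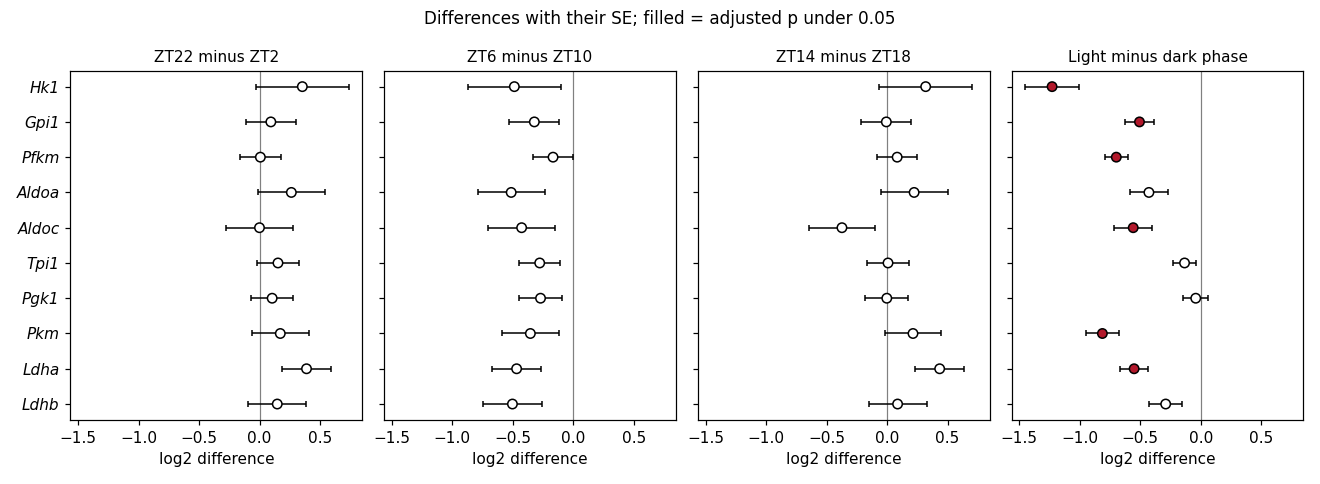
Log2 differences of the 10 enzymes (horizontal axes, points with SE) inside each of the 3 clusters and between light and dark phase. Filled points have an adjusted p under 0.05 (edgeR), and they appear only in the panel of light minus dark, for 6 genes, all below 0.

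The 2 isozyme pairs were compared within libraries as log2 ratios of read counts, which do not depend on library scaling. Per kb of exon, *Ldhb* stood 7.20 (ZT14) to 10.7 (ZT2) times above *Ldha*. The log2 ratio of *Ldha* to *Ldhb* was highest at ZT14, with -1.79, -1.70 and -1.82 in the 3 replicates, above every library of the other timepoints. The lowest mean was that of ZT2, with -2.31, -2.43 and -2.30, though ZT10 replicate B had -2.56. The mean was -2.24 ± 0.19 in the light and -2.00 ± 0.19 in the dark (SD, n = 9 each), a difference of -0.24 (exact two-sided permutation test over 48620 arrangements, p = 0.0165, adjusted over the 2 ratios p = 0.0329). The test counts the 9 libraries of a phase as separate although they come from 3 timepoints, so its p does not measure spread between timepoints. By timepoint the mean was -1.77 at ZT14, and from -2.34 (ZT2) to -2.10 (ZT22) at the other timepoints. The adjusted p was 0.0662 with the reads recovered from the normalized table, and between 0.0504 and 0.0666 in 9 of the 18 tests that left out 1 library. Inside the cluster of ZT22 and ZT2 the ratio was 0.24 higher at ZT22 and the replicates did not overlap, and inside that of ZT14 and ZT18 it was 0.35 higher at ZT14, again without overlap (exact permutation p = 0.1 in each, the smallest that 3 against 3 allows). For ZT6 against ZT10 the difference was 0.08 (exact permutation p = 0.8).

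The log2 ratio of *Aldoa* to *Aldoc* was 1.46 ± 0.17 at ZT6, 1.52 ± 0.10 at ZT10 and 1.47 ± 0.22 at ZT14 (SD, n = 3). It was 0.82 ± 0.31 at ZT18, 0.43 ± 0.08 at ZT22 and 0.17 ± 0.35 at ZT2. Read counts of *Aldoa* were thus 2.87 times those of *Aldoc* at ZT10 and 1.12 times at ZT2, and per kb of exon the ratio ran from 3.23 to 1.26. All 6 libraries of ZT22 and ZT2 lay below all 9 of ZT6, ZT10 and ZT14, from -0.23 to 0.52 against 1.22 to 1.64. Between light and dark phase no difference was detected, with 1.05 ± 0.69 in the light and 0.91 ± 0.49 in the dark (SD, n = 9 each, difference 0.14, exact two-sided permutation p = 0.609). That test, too, counts libraries of the same timepoint as separate. Inside the clusters the ratio differed by 0.65 for ZT14 minus ZT18 (exact permutation p = 0.1, the smallest possible), 0.27 for ZT22 minus ZT2 (exact permutation p = 0.3) and -0.06 for ZT6 minus ZT10 (exact permutation p = 0.6).

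**Figure D3:**
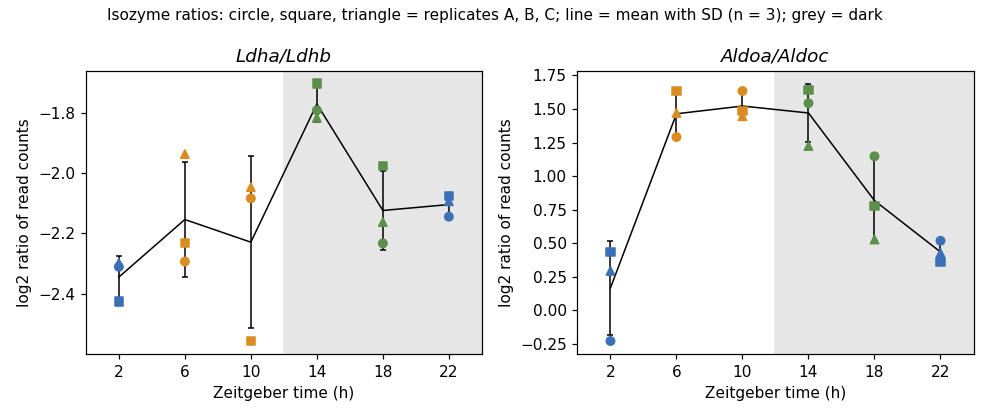
Log2 ratio of read counts of *Ldha* to *Ldhb* (left) and of *Aldoa* to *Aldoc* (right) against zeitgeber time in hr. Points are replicates A (circle), B (square) and C (triangle), coloured by cluster as in the plot of levels, and lines join the means with their SD (n = 3). The first ratio is highest at ZT14 and the second is lowest at ZT2 and ZT22.

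The other genes of glucose use did not follow a single course. Of 20 further glycolytic enzymes, 17 were tested and 7 changed with time (41.2%, against 44.0% of all genes tested). Of these, 3 had the pattern of the 8 enzymes above, namely *Pfkp*, *Bpgm* and *Eno1*. The share of all genes with the highest mean at ZT22 or ZT2 and the lowest at ZT6 or ZT10 was 10.9%. *Pfkp*, the platelet-type phosphofructokinase, which shares 16.04% of its windows of 100 bases with *Pitrm1*, had 453 ± 37.7 CPM at ZT22 and 72.2 ± 14.5 CPM at ZT6 (SD, n = 3, adjusted p = 5.84e-07, edgeR). *Bpgm*, which makes 2,3-bisphosphoglycerate, fell from 203 ± 36.9 CPM at ZT2 to 70.4 ± 15.3 CPM at ZT6, and the enolase *Eno1* from 353 ± 38.02 CPM at ZT22 to 80.6 ± 40.9 CPM. The third phosphofructokinase, *Pfkl*, which was picked after its values were seen, followed *Hk1*, with 299.6 ± 53.5 CPM at ZT14, 212 ± 125 CPM at ZT18 and between 79.0 and 106 CPM at the other timepoints (adjusted p = 0.00944, edgeR). The mutase *Pgam1*, whose transcript shares 39.7% of such windows with *Pgam1-ps2* (25000 reads beside 10579 on the genes that share them), was lowest at ZT2 (18.7 ± 0.868 CPM) and ZT22 and highest at ZT10 (97.0 ± 4.28 CPM, edgeR adjusted p = 6.82e-06), against the direction of *Pgk1* before it in the pathway and of *Eno1* after it. The neuronal enolase *Eno2*, also picked after its values were seen, was highest at ZT14 (1183 ± 144 CPM) and lowest at ZT6 (374 ± 130.3 CPM). Median log2 levels relative to each gene's mean were 0.63, -0.54 and 0.07 over the 10 enzymes in the clusters of ZT22 and ZT2, ZT6 and ZT10, and ZT14 and ZT18, 0.18, -0.18 and -0.03 over the 17, and 0.02, -0.05 and 0.03 over all genes tested.

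Uptake and exit of the substrates were measured in 7 transport genes, of which 3 (42.9%) changed with time, near the 44.0% of all genes. *Bsg*, the basigin chaperone that carries lactate transporters to the cell surface, had 59.1 ± 3.60 CPM at ZT22 and 52.9 ± 3.03 CPM at ZT2 against 542 to 741 CPM in the means of the other 4 timepoints (adjusted p = 1.00e-09, edgeR). The neuronal glucose transporter *Slc2a3* was highest at ZT2 (153 ± 67.7 CPM) and lowest at ZT6 (45.5 ± 16.2 CPM). *Slc2a1*, the glucose transporter of the blood-brain barrier and of astrocytes, was highest at ZT14 (96.8 ± 15.3 CPM) and lowest at ZT2 (30.9 ± 15.7 CPM), as *Hk1* was. The other 4 transport genes did not pass.

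Of 18 regulators of glycolysis and of pyruvate entry into mitochondria, 10 changed with time (55.6%, against 44.0% of all genes). Of these, 5 had the highest mean at ZT22 or ZT2 and the lowest at ZT6 or ZT10, as 10.9% of all genes tested did. For 3 of the 5 the lowest mean was at ZT6, as in the 8 enzymes. *Dld* and *Pdhx*, parts of the pyruvate dehydrogenase complex, fell from 223 ± 32.9 and 127 ± 13.1 CPM at ZT22 to 97.0 ± 21.3 and 37.8 ± 19.3 CPM at ZT6 (SD, n = 3). *Dlat*, the acetyltransferase of the same complex, was instead lowest at ZT2 (32.0 ± 5.03 CPM). *Mpc2*, a subunit of the mitochondrial pyruvate carrier, had 13.6 ± 4.05 CPM at ZT2 and 13.6 ± 2.09 CPM at ZT22, against 407 ± 49.6 CPM at ZT6 (adjusted p = 1.17e-11, edgeR). Among 6 pentose phosphate enzymes 5 changed with time (83.3%, against 44.0% of all genes). Of them, 4 had the enzymes' pattern, beside the 10.9% of all genes with the lowest mean at ZT6 or ZT10. *Tkt* and *Taldo1*, the transketolase and transaldolase that feed carbon back into glycolysis, fell from 309.8 ± 43.8 and 322 ± 27.5 CPM at ZT22 to 86.4 ± 10.4 and 127 ± 38.72 CPM at ZT6. *G6pdx*, which opens that pathway, fell from 107 ± 24.2 CPM at ZT2 to 30.8 ± 7.34 CPM at ZT6, and *Pgd* from 78.3 ± 14.3 to 31.8 ± 8.07 CPM. Of 7 glycogen enzymes 3 changed with time (42.9%, near the 44.0% of all genes) and none had the enzymes' pattern. *Pygb*, the brain glycogen phosphorylase, had 270.3 ± 32.4 CPM at ZT18 and 70.6 ± 7.63 CPM at ZT6. Inside the clusters 0 genes of these 5 lists passed by edgeR. At an unadjusted p under 0.05 by edgeR, ZT14 against ZT18 had 3 of the 17 glycolytic enzymes and 1 regulator, beside 13.5% of all genes. ZT22 against ZT2 had 1 regulator, beside 3.59% of all genes. ZT6 against ZT10 had 1 glycolytic enzyme, 1 regulator, 1 pentose phosphate enzyme and 2 glycogen enzymes, beside 10.8% of all genes. DESeq2 called 2 of the 17 glycolytic enzymes for ZT14 against ZT18, where it called 842 of the 18941 genes tested, and 0 in the rest.

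**Figure D4:**
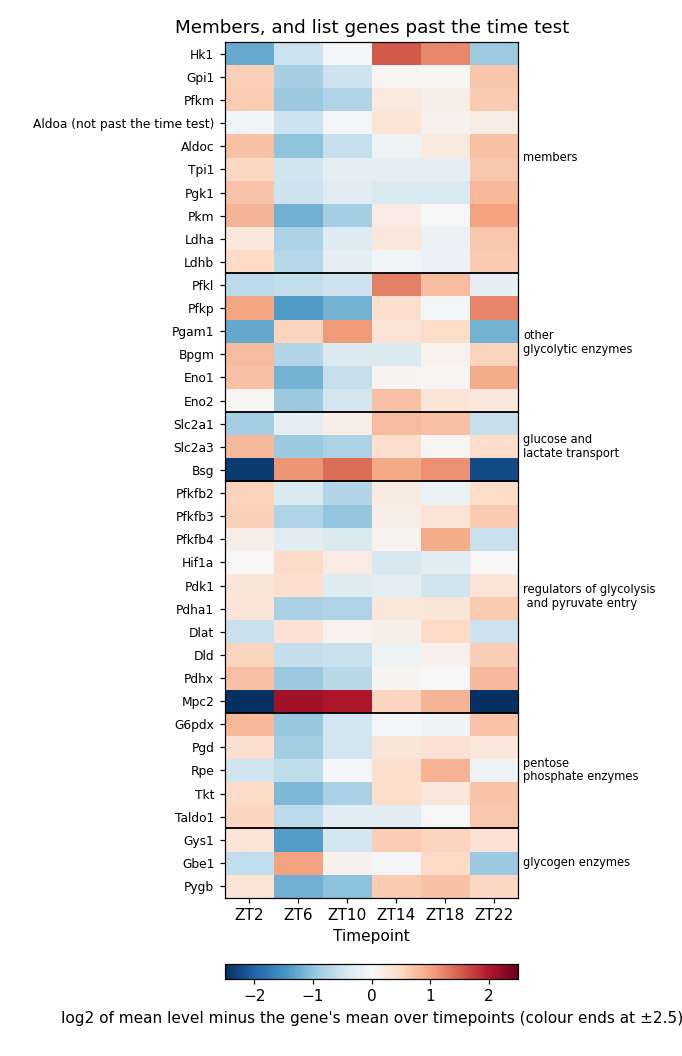
Mean level at each timepoint as a log2 difference from the gene's mean over timepoints (red above, blue below), for the 10 enzymes and for the genes of 5 further lists that passed the time test, but for 1 that is not reported here. Most rows are red at ZT2 and ZT22 and blue at ZT6 and ZT10, with the opposite colours for *Bsg*, *Mpc2* and *Pgam1* among others, and *Hk1* and *Pfkl* red at ZT14 and ZT18.

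Reads of some of these enzymes cannot be assigned with certainty, since their transcripts are copied in pseudogenes. The sequenced reads were 100 bases long, so each protein-coding transcript was searched for windows of 100 bases that occur also in another gene's transcript. No such window was found in *Aldoa*, *Aldoc* or *Pfkm*, and *Tpi1* (0.796%), *Ldha* (1.28%), *Hk1* (1.39%), *Gpi1* (7.40%), *Ldhb* (8.80%) and *Pkm* (9.82%) had few. In *Pgk1* the share was 67.0%, mostly with the pseudogene *Pgk1-rs7*, and in *Gapdh*, the enzyme between *Tpi1* and *Pgk1*, it was 78.0% with 86 other genes. The windows of *Hk1* lie in an antisense gene, *Hk1os*, whose level was at most 4.21 CPM in any timepoint mean. The following coding stretches of 100 bases show what a read can and cannot tell. The first, of *Gapdh*, occurs letter for letter in 38 other genes, of which 25 are in the count table, and the second, of *Gpi1*, occurs in *Gm1840* (GENCODE M21 transcripts, GRCm38; chr6:125162901-125163000, minus strand; chr7:34202450-34202549, minus strand).
Gapdh: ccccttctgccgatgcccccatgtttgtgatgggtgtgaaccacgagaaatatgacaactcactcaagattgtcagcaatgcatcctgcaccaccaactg
Gpi1: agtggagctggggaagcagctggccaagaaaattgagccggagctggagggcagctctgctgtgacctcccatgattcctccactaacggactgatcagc

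*Gapdh* itself had 7269 reads over all 18 libraries, against 1547930 for *Aldoa*, and 261340 reads were counted on 46 of the genes that share its windows. Of these, 222438 lay on the processed pseudogene *Gm13394*. The level of *Gapdh* was 22.4 ± 1.13 CPM at ZT22 and 10.7 ± 4.77 CPM at ZT18, and it did not pass the time test (SD, n = 3, adjusted p = 0.0519, edgeR). The 46 genes together had 850 ± 107 CPM at ZT22 and 784 ± 145 CPM at ZT2, against 334 ± 179 CPM at ZT6, 482 ± 64.4 CPM at ZT10, 468 ± 51.2 CPM at ZT14 and 431 ± 119 CPM at ZT18. Which of these reads came from *Gapdh* cannot be told from gene counts. *Pgk1* had 54240 reads and its sharing genes 2054. For *Gpi1* the pseudogene *Gm1840* held 72710 reads beside the 236844 of the gene, and it had the same course, from 214 ± 1.90 CPM at ZT22 to 67.4 ± 26.9 CPM at ZT6 (SD, n = 3). *Eno1* shared 59.0% of its windows, nearly all with *Eno1b*, and had 99073 reads beside 112582 on the sharing genes. Its values are the reads counted on *Eno1*, and how many of them came from *Eno1* cannot be told. *Eno1b* was counted apart, with 451 ± 50.3 CPM at ZT22 and 69.6 ± 41.6 CPM at ZT6.

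**Figure D5:**
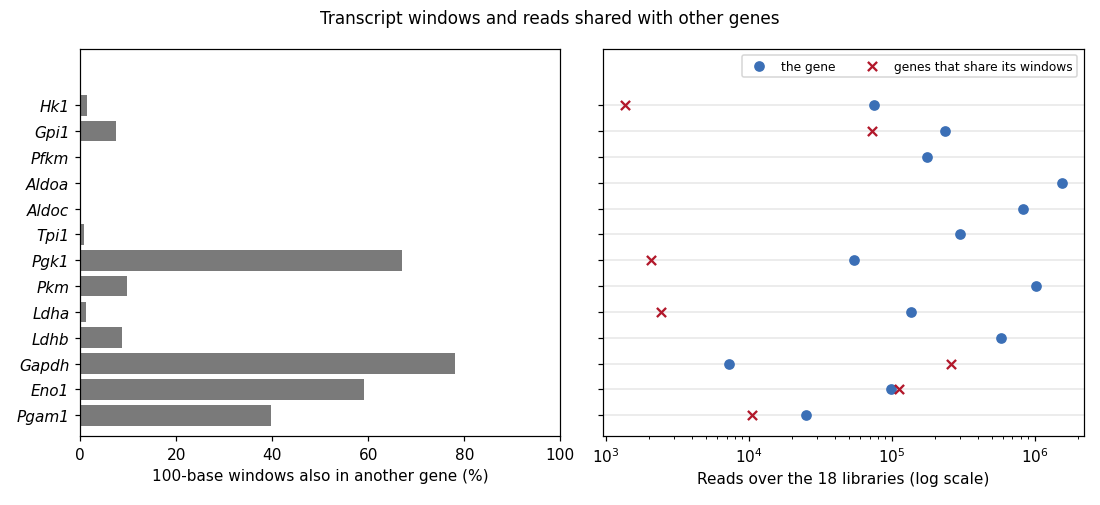
Left, percent of the 100-base windows of each transcript that occur in another gene's transcript. Right, reads over the 18 libraries on the gene (blue points) and on the genes that share its windows (red crosses, log axis). *Gapdh* has the highest share, 78.0%, and 7269 reads beside 261340 on the genes that share with it.

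Promoters of the enzymes, most of which had the same course, were searched for letters known to be bound by clock and hypoxia factors. RefSeq promoters (GRCm38.p6) were found for all 10 genes, with 19 start sites, and the 250 bases before each start were searched on both strands for CACGTG, the E-box bound by the clock proteins CLOCK and BMAL1 and by MYC, and for ACGTG as well as the related GCGTG, which hold the core of the hypoxia response element bound by HIF1. The E-box letters contain ACGTG, so each such match counts under both. The E-box letters were found at 2 of 19 starts (*Ldha* and *Pfkm*) and in 6.02% of all 32851 promoters, ACGTG at 7 of 19 and in 16.6%, and GCGTG at 7 of 19 and in 28.2%. Some starts of a gene lie so close that their 250 bases overlap, and a match can then count at both. This was so for ACGTG in *Aldoa* and GCGTG in *Pfkm*, so the starts are not separate observations. By gene, 2, 5 and 5 of the 10 enzymes held these letters. The shares over all promoters are per start, and a gene with several starts can match at any of them. The counts by gene thus have no background here. The last 160 bases before the start are printed for *Ldha* and *Pgk1*, whose levels were highest at ZT22, and for both starts of *Hk1*, whose level was highest at ZT14, with the matches in capitals (chr7:46845644-46845803, plus strand; chrX:106186940-106187099, plus strand; chr10:62379909-62380068 and chr10:62340422-62340581, minus strand).
Ldha: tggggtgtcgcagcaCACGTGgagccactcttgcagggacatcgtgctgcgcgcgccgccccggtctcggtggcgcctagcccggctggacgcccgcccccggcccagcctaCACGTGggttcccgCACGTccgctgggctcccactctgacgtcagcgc
Pgk1: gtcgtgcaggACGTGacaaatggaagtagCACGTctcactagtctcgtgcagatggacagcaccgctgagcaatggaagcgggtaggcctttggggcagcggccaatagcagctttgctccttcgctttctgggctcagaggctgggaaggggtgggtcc
Hk1, upstream start: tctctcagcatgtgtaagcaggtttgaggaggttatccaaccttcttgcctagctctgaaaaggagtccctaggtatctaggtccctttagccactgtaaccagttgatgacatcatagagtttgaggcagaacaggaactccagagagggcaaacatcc
Hk1, downstream start: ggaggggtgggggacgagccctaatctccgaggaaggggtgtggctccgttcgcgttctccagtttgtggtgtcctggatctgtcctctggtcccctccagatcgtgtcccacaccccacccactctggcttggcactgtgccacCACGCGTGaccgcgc
The *Ldha* stretch holds CACGTG at 2 places and the *Pgk1* stretch ACGTG at 2, the upstream start of *Hk1* holds none of the 3 and the downstream start holds GCGTG only. The other start of *Ldha* also holds GCGTG only, and the starts of *Gpi1* and *Tpi1*, which were highest at ZT22 too, hold none of the 3. The printed starts are examples chosen after the search. A match says that these letters are present, and not that a factor binds there.

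The 5 genes were named whose log2 levels over the 18 libraries were most alike to the mean of the 10 enzymes, among 9601 genes with a mean of at least 10 CPM. They were *Gm1840* (Pearson r = 0.993), which is the pseudogene of *Gpi1*, *Snap47* (0.978), *Ctsb* (0.975), *Gm13509* (0.975) and *Asns* (0.974), against a median r of 0.08 over all genes compared. These values are a description over libraries that share 3 clusters. After the mean of each cluster was subtracted they were *Gm1840* (0.975), *Uqcrc1* (0.973), *Ppme1* (0.970), *Tcf25* (0.957) and *Adrm1* (0.946), so only the pseudogene was in both lists. *Uqcrc1*, a subunit of respiratory complex III, had its lowest mean at ZT2 (54.8 CPM) and its highest at ZT14 (684 CPM).

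Markers of the cells in the captured tissue also moved between the clusters. The summed level of the 10 enzymes was 12484 to 14960 CPM at ZT22 and ZT2, 3358 to 8455 CPM at ZT6 and ZT10, and 7358 to 12051 CPM at ZT14 and ZT18. Beside each count of markers below stands the 44.0% of all genes tested that changed with time. All 8 astrocyte markers tested changed with time, and their summed level was 4173 to 5978, 1976 to 2641 and 3230 to 4287 CPM in the same clusters. Not all of these markers followed the sum. *Sox9* had its highest mean at ZT6 (74.3 CPM) and its lowest at ZT18 (35.4 CPM), and *Gfap* its highest at ZT18 (459 CPM). Of 6 general neuron markers 5 changed, with sums of 6429 to 8316, 3187 to 4306 and 3838 to 6375 CPM. Most of this sum was *Snap25* (4207 of 6736 CPM at ZT2). Of the 6, 2 changed with the highest mean at ZT22 or ZT2 and the lowest at ZT6 or ZT10. *Rbfox3* was highest at ZT14 (76.3 CPM) and lowest at ZT2 (20.5 CPM), and *Syt1* was lowest at ZT18 (366 CPM). Of 7 markers of SCN neurons 6 changed, in another order, with 1779 to 3060, 3792 to 5013 and 1215 to 2222 CPM. Most of that sum was *Vip* (1806 of 2557 CPM at ZT2). All 7 oligodendrocyte markers changed, with 2158 to 4439, 1280 to 3048 and 4729 to 6082 CPM. Of 8 microglia markers 7 changed (219 to 282, 115 to 256 and 201 to 281 CPM), of 6 endothelial markers 4 (93.3 to 202, 84.0 to 105 and 103 to 138 CPM), and of 3 red blood cell genes 1 (141 to 344, 130.5 to 411 and 139 to 468 CPM). No marker tested had a timepoint mean of 0. In ZT6 replicate C, where the enzymes were low, the astrocyte sum was 2568 CPM against 2641 and 2613 CPM in replicates A and B, and the sum for SCN neurons was 5013 CPM against 4260 and 4712 CPM. Other lists were low there with the enzymes, with 3187 CPM against 4306 and 3728 CPM for neurons, 1280 CPM against 3048 and 1466 CPM for oligodendrocytes, 115 CPM against 256 and 189 CPM for microglia, 130.5 CPM against 288 and 302 CPM for red blood cells, and 84.0 CPM against 89.0 and 96.0 CPM for endothelial cells. The part of cell composition in the change of the enzymes was not tested.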

How the data were processed

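Laser-captured SCN tissue of pooled mice gave 18 libraries, 3 at each of 6 timepoints, from 54 lane-level samples whose lanes were already combined. The authors aligned paired reads of 100 bases with GSNAP to mm10 (GRCm38) and counted them per Ensembl gene with HTSeq 0.5.4p1. The count table was deposited as raw read counts, 15412981 to 35820945 per library. How reads that map to several genes were counted is not given in the sources used here. A second deposited table holds DESeq2-normalized values by the authors, used as a signal from which whole reads were recovered (100% of values within a relative tolerance of 1e-06) for an alternative. For the 10 enzymes these were 85.4 to 98.8% of the counts at ZT6 and ZT10 and 100 to 100.2% elsewhere. No sample column was left unused (0).

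A gene was tested where more than 6 libraries held 1 or more of its reads, with edgeR 4.0.16 (R 4.3.3; quasi-likelihood F-test, TMM, 6 timepoints in 1 fit, no block, Benjamini–Hochberg at 0.05 over 18941 genes). JTK_CYCLE was rewritten (period 24 hr, exact null distribution, Bonferroni over 6 lags, CPM), with a Benjamini–Hochberg adjustment over genes as an alternative. Isozyme ratios were tested by exact permutation (Python 3.11.15, scipy 1.17.1). The tests were tested on simulated data. Alternatives were DESeq2 1.42.0, other scalings and filters, the replicate letter as a block, recovered reads, each library left out and, chosen after seeing the data, a GC and length correction and the removal of ZT6 C with ZT18 C. Annotation was GENCODE M21. The text names the 10 enzymes, *Gapdh*, up to 4 genes of each list with the smallest adjusted p past the time test, and the 5 genes most alike. *Pfkl*, *Eno2*, the markers and the genes that share windows were named outside this rule, after their values were seen. Some items of these lists are not reported here. The enzymes and lists were chosen with earlier results of these data known. Replicates are separate pools of mice.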

Additional observations from a re-analysis of the deposited data

How the results depend on the processing

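Of the 10 enzymes, 9 to 10 changed with time, 6 to 10 were called cycling and 6 to 8 differed between light and dark phase under the alternatives, and 0 differed inside a cluster under any of them. Over all genes, DESeq2 called 842 for ZT14 against ZT18, 42 for ZT22 against ZT2 and 244 for ZT6 against ZT10, where edgeR called 108, 6 and 9. Leaving out 1 library moved the first count between 9 and 10, the second between 6 and 9, the third between 6 and 8, and the number of all genes changing with time between 7456 and 9129. The log2 difference between light and dark turned sign for *Pgk1*, which did not pass, with DESeq2's size factors (0.0193), DESeq2 (0.0192), no filter on low counts (0.00121), recovered reads (0.0442) and upper-quartile scaling (0.0597), and over the 18 fits without 1 library it ran from -0.0746 to 0.0476, above 0 without ZT2 C (0.0476) and ZT6 C (0.0109). For *Tpi1* it turned with recovered reads (0.00332). The log2 difference of the *Ldha* to *Ldhb* ratio was -0.22 with recovered reads and no longer passed, and -0.28 to -0.20 without 1 library, where it missed the threshold in 9 of 18 tests. *Aldoa* changed with time with library totals alone (adjusted p = 0.0467, edgeR) and with a GC and length correction (adjusted p = 3.31e-04, edgeR), chosen after seeing the data. The cause was not tested.

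With the replicate letter as a block, 9 enzymes changed with time, 8 were called cycling and 7 differed between light and dark, with *Aldoa* added, and all genes changing with time numbered 7847 instead of 8343. Deviations of libraries with the same letter correlated between -0.54 and 0.31, and 8 of 18 libraries correlated best with their own letter, so the letters were not taken as pairs.

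Each timepoint has 3 pools, the exact test of 3 against 3 cannot go below 0.1, timepoint clusters and sequencing batch cannot be told apart, and gene counts do not separate *Gapdh* or *Eno1* from their copies. *Pgk1* (67.0%) and *Pgam1* (39.7%) also share many windows, and how reads that fit several genes were counted is not given.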
